A study of Mus musculus with 16 samples.

Results

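Genes for the enzymes that cut the extracellular matrix, for their inhibitors and for the enzymes that cross-link it were followed in cultured juxtaglomerular (JG) cells, the renin-producing cell type of the kidney. They were taken by biotype and symbol as all protein-coding genes of the count table named Mmp, Timp, Adamts, Adamtsl or Loxl with a number, together with Lox, which gave 55 of 46078 genes. These were 22 matrix metalloproteinases (MMPs), 19 ADAMTS proteases, 5 ADAMTS-like genes, 4 tissue inhibitors of metalloproteinases (TIMPs) and 5 lysyl oxidases. The rule used no measured value, although the families were picked with earlier results of these data known. The mouse JG cells carried a yellow fluorescent protein (YFP) driven by the renin promoter and were transfected either with miR-106b or with a control microRNA precursor of non-mammalian sequence. RNA was taken 48 h after transfection. Polyadenylated (polyA) RNA came from 4 cultures per transfection, and RNA bound to Ago2 was immunoprecipitated (Ago2-IP) from 4 other cultures per transfection. As described, all 4 groups shared the same engineered cells and differed in precursor and in kind of RNA. The cell type markers given below differed between the kinds of RNA, and whether the cell content was the same was not tested. The replicates are separate cultures, and whether the cells came from 1 line or from several animals is not given in the sources used here.

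The extracellular matrix is built, cut and hardened by different enzymes. MMPs are zinc proteases that cleave collagens, gelatin and other matrix proteins. They are made as inactive proforms, and TIMPs block their active site. ADAMTS proteases are secreted relatives with thrombospondin repeats, and their substrates include proteoglycans and the propeptides of fibrillar collagens. ADAMTS-like proteins share the repeats but lack the protease domain. Lysyl oxidases are copper enzymes that oxidise lysines of collagen and elastin, from which cross-links form. A microRNA such as miR-106b guides Ago2 to messages that pair with its seed, and pairing in the 3′UTR commonly lowers the message.

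Libraries held between 2579086 and 9459585 reads counted on genes, with 5692958 to 9459585 in polyA control, 2815272 to 4554848 in polyA miR-106b, 3501909 to 4616424 in Ago2-IP control and 2579086 to 3450269 in Ago2-IP miR-106b. Values are CPM, counts scaled to library size with the TMM method within each kind of RNA. CPM of polyA and of Ago2-IP RNA are thus not on a common scale. A count of 0 allows up to 3 counts, which was 0.317 CPM in the deepest library and 1.16 CPM in the shallowest, and this limit covers counting error only. The defining marker of the labelled cell type was absent, since Ren1, the renin gene itself, had 0 counts in all 16 libraries, and Akr1b7, another marker of these cells, had 6 counts in total. The other 8 genes of the list for renin lineage and mural cells were expressed, and 6 of them rose and 1 fell in polyA RNA with miR-106b. Des had means of 1096 CPM in polyA control, 2553 CPM in polyA miR-106b and 4353 CPM in Ago2-IP control, the order also of the cardiac sums below. Myh11, Rgs5, Pdgfrb, Notch3 and Cspg4 stood in that order too. In the same groups Acta2 went the other way, at 752, 598 and 254 CPM, as did Tagln, at 495, 355 and 89.7 CPM. The summed level of 20 cardiac muscle genes was 19629.9 to 28009.6 CPM in polyA control and 39369.5 to 68049 CPM in polyA miR-106b. It was 90403 to 95567 CPM in Ago2-IP control and 87707 to 95869.5 CPM in Ago2-IP miR-106b. The sums of the lists for endothelium, for macrophages and leukocytes and for renin lineage and mural cells stood in the same order. In polyA RNA 18 of 19 tested cardiac genes, 9 of 10 endothelial genes, 8 of 8 leukocyte genes and 10 of 10 fibroblast genes rose with miR-106b, and 1 of 4 tested kidney tubule genes fell. The kidney tubule sum ran otherwise, at 715 to 894 CPM in polyA control and 568 to 740 CPM in polyA miR-106b. It was 346 to 367 CPM in Ago2-IP control and 348 to 375 CPM in Ago2-IP miR-106b. Between polyA control and Ago2-IP control, mean CPM went from 179 to 4.41 for Pax8 and from 164 to 2.80 for Cdh16. Lrp2 went from 16.8 to 1.18 CPM and Aqp1 from 411 to 347 CPM. In bulk RNA, more cells of a type and more RNA per cell cannot be told apart. The part of these markers in the results given here was not tested.

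**Figure D1:**
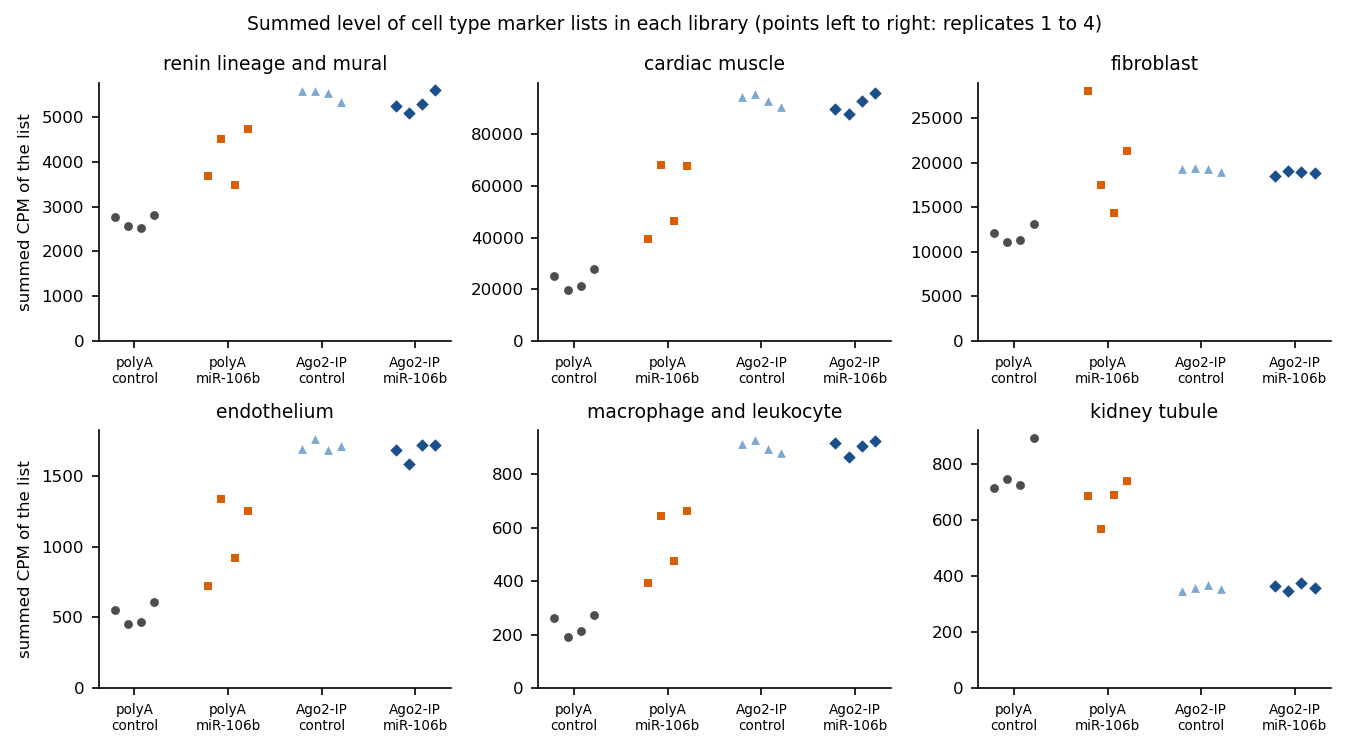
Summed CPM of 6 lists of cell type markers (y axis) in each of the 16 libraries (x axis, grouped by kind of RNA and transfection, points from left to right being replicates 1 to 4). The 4 polyA miR-106b libraries lie between the polyA control and the Ago2-IP libraries for cardiac muscle, and replicate 1 of polyA miR-106b has the highest fibroblast sum, at 28063 CPM.

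A single library stood apart for the genes studied here. Replicate 1 of polyA miR-106b held 13375 CPM summed over the 55 genes, where the other 3 libraries of its group held 5202 to 7547 CPM and polyA control held 7262 to 7831 CPM. Its fibroblast marker sum was 28063 CPM, where the other 3 held 14309.6 to 21289 CPM and polyA control held 11139 to 13147 CPM. The main counts that include this library are therefore also given without it.

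The seed decides which messages a microRNA can pair with, so the mature sequence and the matching sites are shown first. The mature mouse sequence from RefSeq, on GRCm38.p6 at chr5:138165787-138165807 on the minus strand, has its seed of bases 2 to 8 in capitals.
mmu-miR-106b-5p: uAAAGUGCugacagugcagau
A site was counted where the longest annotated 3′UTR of GENCODE M21 held GCACTTT, the complement of the seed (a 7mer-m8, or an 8mer when an A follows), read on the message strand only. It was present in 3 of 44 genes (6.82%) that passed the filter on low counts described below, against 14.8% of 13222 tested genes with an annotated 3′UTR. The 3 genes were the inhibitor Timp2, the protease Mmp23 and the aggrecan-cleaving protease Adamts5. Their sites are given with the flanking 10 bases, or fewer where the transcript ends, the match being in capitals.
Timp2, chr11:118301836-118301842, minus strand: attagactttGCACTTTtaaaaaaaaa
Mmp23, chr4:155650663-155650669, minus strand: agcagataaaGCACTTTctctctga
Adamts5, chr16:85859623-85859629, minus strand: tgtataaagtGCACTTTgtgagtttat
With the weaker 7mer-A1 match CACTTTA also counted, 7 of 44 genes (15.9%) had a site, against 22.2% of all. This added Timp3, Mmp15, Adamts2 and Lox, and gave Adamts5 another match. The sites of Timp3 and Mmp15, which both changed in polyA RNA, are shown. Adamts2 changed there as well, and its site is not shown.
Timp3, chr10:86347590-86347596, plus strand: gttttcattcCACTTTAgaaacacagt
Mmp15, chr8:95374236-95374242, plus strand: gtaacggggcCACTTTAcctccagaat
None of the 5 genes that fell in polyA RNA held any of these matches in its longest 3′UTR, and Timp3, Mmp15, Adamts2 and Mmp23, which held one, rose. Timp2, Adamts5 and Lox did not pass the test in either direction, and Timp2 was among 11 genes called lower without polyA miR-106b replicate 1. The matches are descriptions of letters and not measured binding.

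Of the 55 genes, 44 were tested, having at least 1 CPM in 3 or 4 libraries of 1 or more groups. The other 11 stayed at or below 1.29 CPM in every library, namely Mmp1b, Mmp7, Mmp8, Mmp10, Mmp20, Mmp21, Mmp24, Mmp27, Adamts13, Adamts18 and Adamts20. Levels were compared between genes only as CPM per kilobase of merged exons, in polyA control. The 5 highest were Timp2 at 460.3, Timp1 at 270.3, Loxl1 at 265, Mmp2 at 226 and Adamts1 at 167 CPM per kilobase. Thus each family except the ADAMTS-like genes had a member among the 5, and 1 or 2 genes made up most of each family. Timp2 took 62.1% ± 1.33 (SD, n = 4) of the TIMP sum per kilobase, and Timp1 took 36.4% ± 1.40. Mmp2, gelatinase A, took 58.1% ± 0.41 of the MMP sum, and Mmp14, the membrane-bound MMP that activates it, took 21.4% ± 0.53. Loxl1 took 56.1% ± 2.16 and Lox 30.5% ± 2.71 of the lysyl oxidase sum, and Adamts1 took 72.6% ± 1.36 of the ADAMTS sum. Among the ADAMTS-like genes Adamtsl4 took 66.5% ± 1.20.

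**Figure D2:**
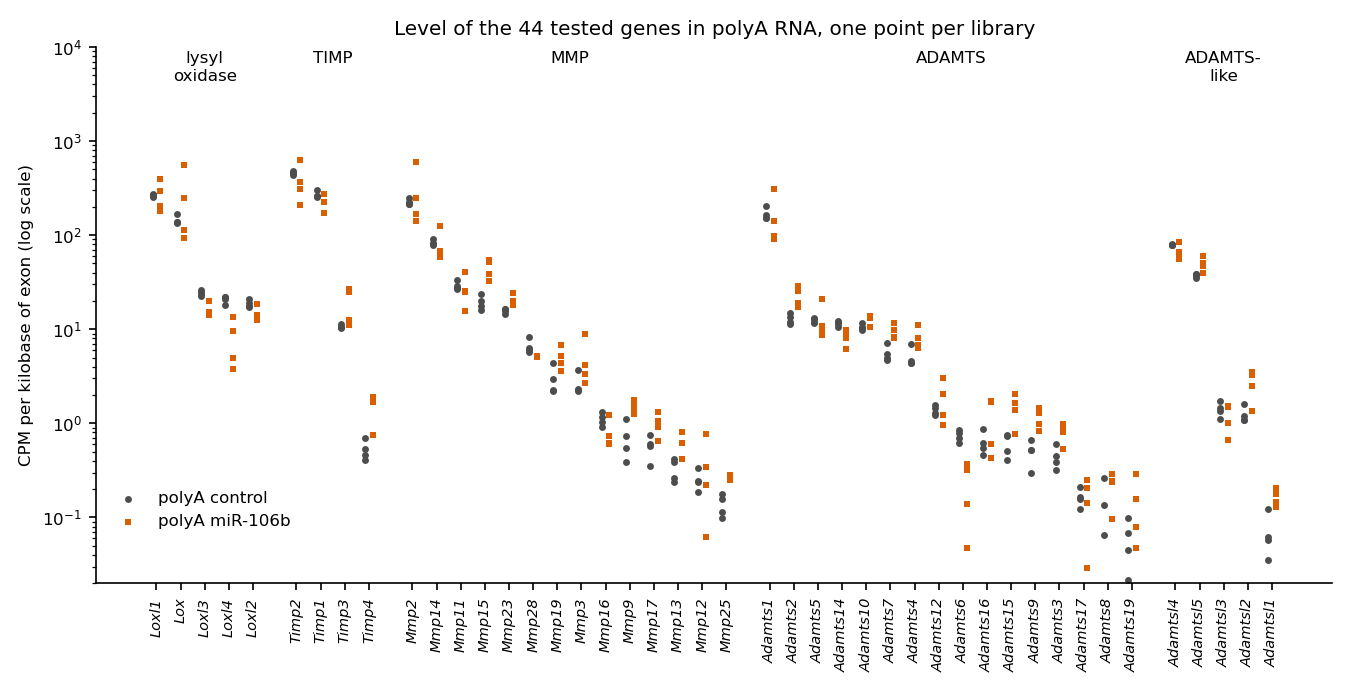
Level of each of the 44 tested genes in polyA RNA as CPM per kilobase of exon (y axis, log scale), by family, with 1 point per library for control (circles) and miR-106b (squares), libraries at 0 being left out. The points span from Timp2 in replicate 1 of miR-106b, at 631 CPM per kilobase, to Adamts19 in replicate 3 of control, at 0.0214.

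In polyA RNA more of these genes rose than fell with miR-106b. By edgeR's quasi-likelihood test at a threshold of 0.05 on the adjusted p, 17 of 44 genes were higher and 5 lower, where 19.0% of all 14897 tested genes were higher and 21.5% lower, 40.5% in all. The median log2 fold change was 0.40 over the 44 genes and -0.05 over all genes. The miR-106b libraries lay wholly above the controls for 12 genes and wholly below for 5, where this held for 16.8% and 21.6% of all genes, and for 15 and 14 without polyA miR-106b replicate 1, where it held for 21.4% and 29.7%. By family, 6 of 14 MMPs rose and 0 fell, 6 of 16 ADAMTS proteases rose and 2 fell, 3 of 5 ADAMTS-like genes rose and 0 fell, 2 of 4 TIMPs rose and 0 fell, and 0 of 5 lysyl oxidases rose and 3 fell. Without polyA miR-106b replicate 1 the counts were 18 higher and 11 lower, where 23.5% and 21.5% of all genes were. By family these were 5 and 2 of the MMPs, 8 and 3 of the ADAMTS proteases, 3 and 1 of the ADAMTS-like genes, 2 and 2 of the TIMPs and 0 and 3 of the lysyl oxidases. In that fit Adamts1, Adamtsl4, Mmp14, Mmp16, Timp1 and Timp2 were lower as well, Adamts10 and Adamts19 were higher as well, and Mmp3 was lost. The calls of 13 of the 22 genes held with each of the 8 libraries left out in turn. The number of higher genes was smallest, at 11, without polyA miR-106b replicate 4, and the number of lower genes was smallest, at 3, without polyA control replicate 1, 2 or 3. Over all genes these 4 fits called 4853, 4571, 4126 and 4286 in either direction, against 6034 with all 8 libraries. Among all tested genes 47.0% of the calls were higher, and with all 16 libraries in 1 fit it was 61.4%, while the genes studied here were then 18 higher and 4 lower.

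**Figure D3:**
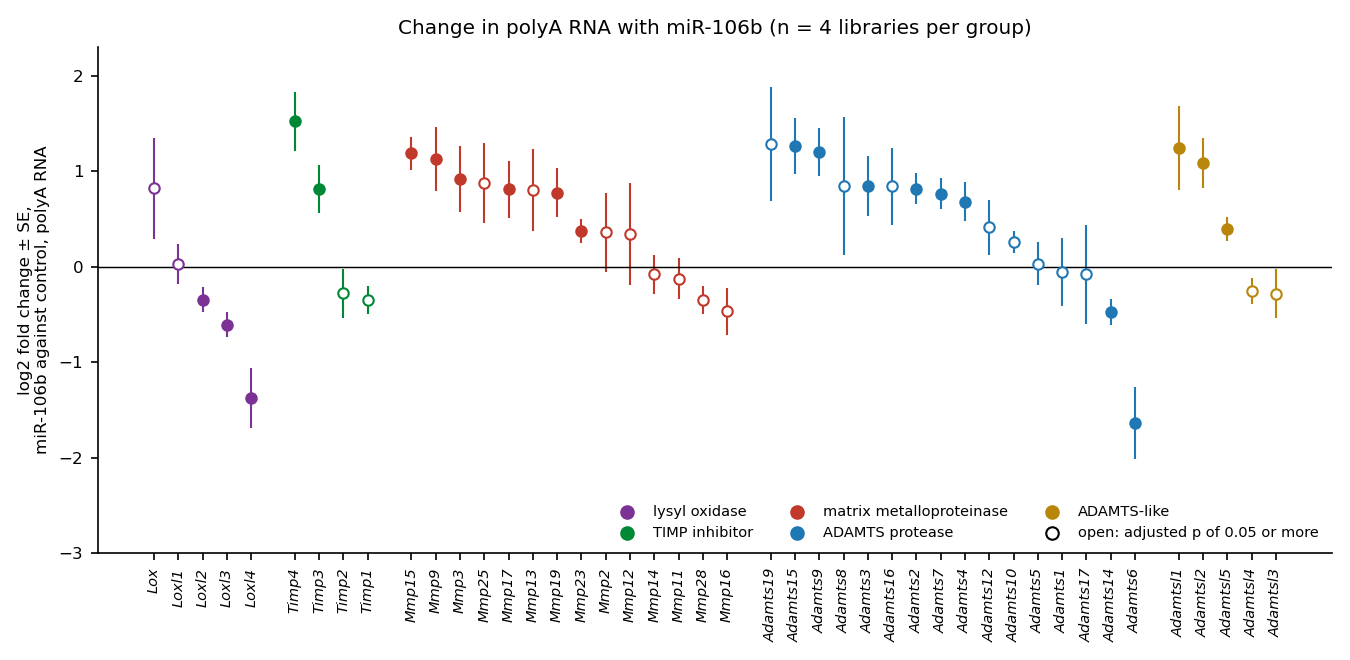
Log2 fold change of miR-106b against control in polyA RNA (y axis, points with bars of 1 SE, 4 libraries per group) for the 44 tested genes by family, filled where the adjusted p was under 0.05. Among lysyl oxidases the filled points lie below 0, from -0.35 to -1.38, and among MMPs they lie above 0, from 0.37 to 1.19.

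The lysyl oxidases split in polyA RNA, with Loxl2, Loxl3 and Loxl4 lower and Lox and Loxl1 not passing the test. Loxl4 (ENSMUSG00000025185, chr19:42593982-42612813) was at 88.1, 93.3, 92.1 and 75.9 CPM in control and at 20.8, 40.1, 56.9 and 15.95 CPM with miR-106b. All 4 miR-106b libraries were below all controls, and replicates 1 and 4 were the lowest. On the log2 scale Loxl4 changed by -1.38, with an SE of 0.32 (adjusted p = 0.00704, edgeR's quasi-likelihood test). Loxl3 (ENSMUSG00000000693, chr6:83034173-83052562) was at 108, 121, 115 and 103 CPM in control and at 92.3, 65.8, 69.8 and 65.3 CPM with miR-106b, again with no overlap. It fell by 0.61 on the log2 scale (adjusted p = 0.00262, edgeR's test). Its exons share 535 bases with those of Htra2 on the opposite strand, and the libraries did not mark strand. Loxl2 fell by 0.35 on the log2 scale (adjusted p = 0.0499, edgeR's test). Leaving out 1 library lost this call in 7 of 8 fits, and the adjusted p was highest, at 0.240, without polyA control replicate 2. Its replicate 1 with miR-106b, at 100.4 CPM, lay within the control range of 94.0 to 112 CPM.

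Lox, the founding member of the family, was the least even across libraries. It was at 654, 665, 642 and 798 CPM in control and at 2674, 451, 544 and 1192 CPM with miR-106b. Replicates 1 and 4 lay above all controls and replicates 2 and 3 below them. The log2 fold change was 0.82 (SE 0.52, adjusted p = 0.251, edgeR's test), and it was 0.14 without polyA miR-106b replicate 1. Loxl1, the member linked to elastic fibres, was at 843 to 899 CPM in control and at 1315, 601, 666 and 978 CPM with miR-106b, in the same pattern. Its log2 fold change of 0.02 (SE 0.21) turned to -0.15 without replicate 1 and was -0.00568 under scaling by library size alone. The group means hid this spread, since the SD of Lox was 72.7 CPM in control and 1027 CPM after transfection of miR-106b.

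Among the TIMPs the 2 lower-level genes rose and the 2 abundant ones did not pass the test. Timp4 (ENSMUSG00000030317, chr6:115245616-115251849), an inhibitor known from heart, stood at 4.11, 2.73, 2.40 and 3.15 CPM in control and at 4.48, 11.2, 10.2 and 10.02 CPM with miR-106b. The groups did not overlap, and replicate 1 of miR-106b was close to the highest control. Its log2 fold change of 1.52 (SE 0.31, adjusted p = 0.00211, edgeR's test) was the largest rise among the 44 genes and held in all 8 fits without 1 library. Timp3 (ENSMUSG00000020044, chr10:86300372-86349506), which binds to the matrix itself, was at 84.4 to 91.7 CPM in control and at 202, 103, 91.4 and 219 CPM with miR-106b. Replicates 1 and 4 carried most of the rise, and replicate 3 lay inside the control range. The rise was 0.81 on the log2 scale (SE 0.25, adjusted p = 0.0260, edgeR's test), and without polyA miR-106b replicate 4 the value was 0.60 and the adjusted p 0.0697. Timp3 and Timp4 lie in introns of Syn3 and Syn2 on the opposite strand and share 1733 and 90 exon bases with them. Of the other genes called in polyA RNA, Adamts9 shares 1805 exon bases with genes on the opposite strand, Mmp19 789, Adamts4 171 and Adamts7 122, and Loxl2 shares 308 with genes on either strand.

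Timp2 was at 1797, 1857, 1819 and 1699.6 CPM in control and at 2458, 818, 1204 and 1422 CPM with miR-106b. Of the 4 miR-106b libraries 3 were below all controls, and replicate 1 was above them. Its log2 fold change was -0.28 (SE 0.26, adjusted p = 0.410, edgeR's test). Without replicate 1 it was -0.57 and Timp2 was among the genes called lower. Timp1 was at 224 to 271 CPM in control and at 244, 154, 202 and 154 CPM with miR-106b, with a log2 fold change of -0.35 (adjusted p = 0.0796, edgeR's test), and was called lower without replicate 1.

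Among the MMPs all 6 calls were rises. Mmp15 (ENSMUSG00000031790, chr8:95352268-95374293), a membrane-bound MMP, was at 109, 87.4, 94.9 and 128 CPM in control and at 207, 277, 178 and 292 CPM with miR-106b. The groups were well apart, and the log2 fold change was 1.19 (SE 0.17, adjusted p = 0.000683, edgeR's test). Mmp9, gelatinase B, was at 3.95, 1.36, 1.95 and 2.62 CPM in control and at 4.93, 5.62, 4.42 and 6.31 CPM with miR-106b, also without overlap, and rose by 1.12 on the log2 scale. Mmp23 rose by 0.37, Mmp19 by 0.78, Mmp17 by 0.81 and Mmp3, stromelysin 1, by 0.92 on the log2 scale. Of these, Mmp3 rested on replicate 1, which was at 15.9 CPM where the other 3 miR-106b libraries were at 4.82 to 7.49 CPM, and without it the log2 fold change was 0.50 (adjusted p = 0.166, edgeR's test). The calls of Mmp3 and Mmp17 were each lost in 5 of the 8 fits without 1 library, and that of Mmp19 in 3.

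The abundant MMPs did not pass the test. Mmp2 was at 725 to 844 CPM in control and at 2034, 479, 562 and 833 CPM with miR-106b, and its log2 fold change of 0.36 (SE 0.41) turned to -0.22 without replicate 1. Mmp14 was at 469.8 to 537 CPM in control and at 747, 347, 399.7 and 381 CPM with miR-106b. Its change of -0.08 on the log2 scale (SE 0.21) was -0.32 and called lower without replicate 1. For Mmp2, Mmp14, Timp2, Lox, Loxl1 and Adamts1 alike, replicate 1 was the highest of all 8 polyA libraries and replicate 2 of miR-106b the lowest.

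The ADAMTS proteases moved both ways. Adamts15 (ENSMUSG00000033453, chr9:30899155-30922452), which cleaves proteoglycans such as versican, was at 5.22, 4.20, 7.65 and 7.87 CPM in control and at 8.06, 16.9, 14.4 and 21.1 CPM with miR-106b. The groups did not overlap, although replicate 1 was close to the highest control, and the log2 fold change was 1.27 (SE 0.29, adjusted p = 0.00464, edgeR's test). Adamts9, also a versican protease, rose by 1.20, and Adamts2, which removes the amino-terminal propeptide of procollagen, by 0.81 on the log2 scale. Adamts2 was at 105 to 138 CPM in control and at 269, 178, 161 and 237 CPM with miR-106b. Adamts7 rose by 0.76, Adamts4, an aggrecanase, by 0.68, and Adamts3, another procollagen propeptidase, by 0.84, the last with a call that was lost in 6 of the 8 fits without 1 library.

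Adamts6 (ENSMUSG00000046169, chr13:104287873-104494763) was the ADAMTS gene that fell most. It was at 6.17, 4.83, 6.60 and 5.42 CPM in control and at 2.91, 1.07, 2.48 and 0.371 CPM with miR-106b, so the groups did not overlap. Its log2 fold change was -1.64 (SE 0.38, adjusted p = 0.00449, edgeR's test), and the call held with each library left out. Adamts14, the third procollagen propeptidase, fell by 0.48 on the log2 scale, from 54.7 to 63.2 CPM in control to 32.3 to 51.3 CPM with miR-106b, and the call was lost in 3 of the 8 fits without 1 library. The 3 propeptidases thus differed in direction, Adamts2 and Adamts3 being higher and Adamts14 lower. Adamts1, the most abundant member and a versican protease, was at 797 to 1076 CPM in control and at 1658, 484, 750.1 and 520.1 CPM with miR-106b. The log2 fold change of -0.06 (SE 0.36) became -0.52, and the gene was called lower, without replicate 1.

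Of the ADAMTS-like genes, Adamtsl2, which binds fibrillin and a latent TGF-beta binding protein, was at 8.70 to 12.8 CPM in control and at 10.8, 27.8, 19.9 and 26.3 CPM with miR-106b, and its log2 fold change was 1.09 with an SE of 0.26 (adjusted p = 0.00587, edgeR's test). Replicate 1 lay inside the control range and the other 3 libraries above it. Adamtsl5 rose by 0.39 and Adamtsl1 by 1.24 on the log2 scale. Adamtsl1 was at no more than 1.57 CPM in control, and its call was lost in 5 of the 8 fits without 1 library.

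**Figure D4:**
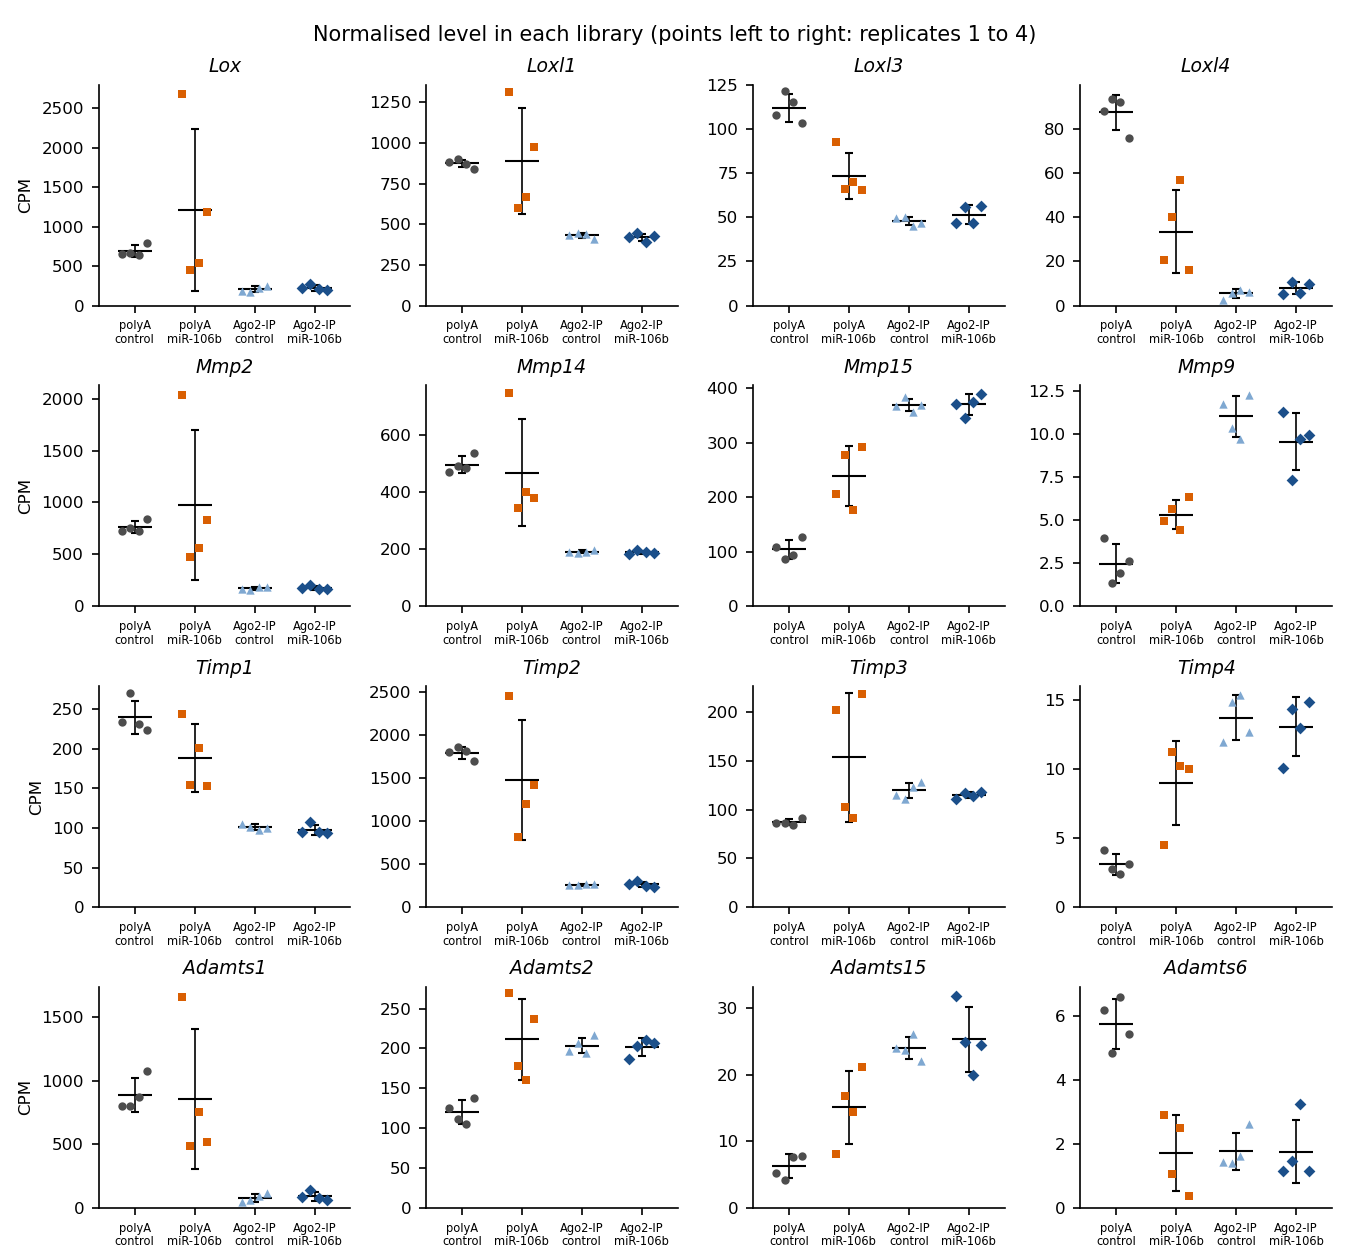
Normalised level in CPM (y axis, from 0) of 16 genes in each of the 16 libraries, grouped by kind of RNA and transfection, with bars for the mean and SD of 4 libraries. Replicate 1 of polyA miR-106b is the highest polyA library for Lox (2674 CPM), Mmp2 (2034 CPM) and Adamts1 (1658 CPM), and the control and miR-106b groups of Ago2-IP RNA overlap for all 16 genes.

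A list of 30 genes that activate or otherwise hold back matrix proteases was read alongside. Of 24 tested, 9 rose and 4 fell in polyA RNA, where 19.0% and 21.5% of all genes did, and 10 rose and 7 fell without polyA miR-106b replicate 1. The falls included those of Plaur, the urokinase receptor, with a log2 fold change of -1.38, and of the membrane proteases Adam9 and Adam12, with -0.79 and -0.58. The rises included the proprotein convertase Pcsk6 at 1.22, the serpin Serpina3n at 1.33 and Cst3, an inhibitor of cathepsins, at 0.98. Furin, which activates Mmp14, rose by 0.29 on the log2 scale (adjusted p = 0.0456, edgeR's test).

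Among 30 matrix substrates and partners, 28 were tested, of which 14 rose and 5 fell in polyA RNA beside the same 19.0% and 21.5% of all genes. Without polyA miR-106b replicate 1 the counts were 14 and 6. Elastin, a lysyl oxidase substrate encoded by Eln, rose by 1.19, the proteoglycans Dcn and Bgn by 1.24 and 1.20, and the fibrillin gene Fbn2 by 1.41 on the log2 scale. The falls were Fbln2 at -1.31, Fn1, encoding fibronectin, at -1.15, the ADAMTS substrate versican, Vcan, at -1.10, the procollagen proteinase enhancer Pcolce2 at -0.92 and Ltbp1 at -0.90. Several of the genes that rose, among them Dcn, Lum, Postn, Vwf and Cspg4, are also in the marker lists of fibroblasts, endothelium or mural cells.

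In Ago2-IP RNA edgeR's quasi-likelihood test of miR-106b against control called 0 of 44 genes, and 0 of all 14897. Of the 44, the count was also 0 under DESeq2's Wald test, under edgeR's likelihood ratio test and in every fit without 1 library. Over all genes it was 2 by the Wald test, 18 by the likelihood ratio test and 0 to 40 with 1 library left out, highest without Ago2-IP miR-106b replicate 4. At an unadjusted p under 0.05 there were 3 of 44, against 5.54% of all genes. They were Mmp16, Mmp12 and Adamtsl1, with log2 fold changes of 1.53 (SE 0.55), 1.05 (SE 0.39) and 0.84 (SE 0.32) and adjusted p from 0.682 to 0.727 in edgeR's test. Mmp16, a membrane-bound MMP, was at 0.570, 1.68, 0.539 and 1.53 CPM in control and at 1.94, 6.73, 3.23 and 0.875 CPM with miR-106b, with overlap and at levels near the limit of a few counts. The libraries did not overlap for Adamtsl1, which was higher, and for Adamtsl2, which was lower, where this held for 1.56% and 1.68% of all genes. Adamtsl2 was at 38.3 to 40.2 CPM in control and at 32.6 to 36.2 CPM with miR-106b. The 22 genes called in polyA RNA had log2 changes from -0.22 for Mmp9 to 0.84 for Adamtsl1 here, with 0.53 for Loxl4 and 0.46 for Mmp17. Timp4 was at 12.0 to 15.4 CPM in control and at 10.1 to 14.9 CPM with miR-106b, Mmp15 at 356 to 385 and 345 to 390.2 CPM, and Loxl3 at 45.0 to 50.4 and 46.9 to 56.3 CPM.

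The study used the Ago2:polyA ratio to ask which messages moved to Ago2 with miR-106b. The change of this ratio, the interaction of kind of RNA and transfection over 16 libraries, passed edgeR's test for 3 genes that were higher and 14 that were lower, where 7.61% of all tested genes were higher and 19.7% lower, 27.3% in all. The genes with a higher ratio were Mmp16 with a log2 change of 1.86 (SE 0.62), Loxl4 with 1.76 (SE 0.56) and Loxl3 with 0.57 (SE 0.16), at adjusted p of 0.0275, 0.0314 and 0.0107. None of the 3 holds a seed match in its longest 3′UTR. For Loxl4 and Loxl3 the fall in polyA RNA entered the ratio, while Ago2-IP RNA gave log2 fold changes of 0.53 (SE 0.29) and 0.11 (SE 0.10) that did not pass. The calls of Loxl4 and Mmp16 were lost in 7 and 3 of the 16 fits without 1 library, and that of Mmp16 gave an adjusted p of 0.177 without Ago2-IP miR-106b replicate 2.

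Of the 14 genes with a lower ratio, Timp4 changed most, by -1.72 (SE 0.35, adjusted p = 0.000586, edgeR's test). It was followed by Mmp9 at -1.48, Adamts9 at -1.44, Adamtsl2 at -1.39, Adamts15 at -1.34 and Mmp15 at -1.33. Mmp3 at -1.17, Mmp19 at -1.14, Timp3 at -1.01, Adamts2 at -0.97, Adamts4 at -0.82, Adamts7 at -0.77, Adamtsl5 at -0.56 and Adamts10 at -0.42 made up the rest. The polyA libraries enter both the ratio and the polyA comparison, so these values are given side by side with the rises above and are not a second measurement of them. Adamts10 was not called in polyA RNA, where its log2 fold change was 0.26 (adjusted p = 0.0907, edgeR's test). The calls of 11 of the 17 genes held in all 16 fits without 1 library. Among the genes with a lower ratio, the call of Mmp3 (adjusted p = 0.0499, edgeR's test) was lost in 12 of these fits. Those of Adamts4 and Adamts10 were each lost in 8, and that of Timp3 in 1. Without polyA miR-106b replicate 1 the counts were 5 higher and 12 lower, with Timp2, Loxl2 and Adamts6 among the higher genes and Loxl4 no longer called. The shares of all tested genes given above are those of the fit with 16 libraries and do not apply to fits without 1 library. Without Ago2-IP control replicate 1, or without Ago2-IP miR-106b replicate 2, 1 gene was higher. Over all tested genes 27.9% of calls were higher, and 46.5% under scaling by library size alone, where the genes studied here gave 3 higher and 11 lower.

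In control-transfected cells the 2 kinds of RNA differed for most of these genes, 18 being higher and 18 lower in Ago2-IP than in polyA RNA by edgeR's test, where 35.1% and 34.6% of all genes were, 69.7% in all. The groups did not overlap for 15 of the higher and 18 of the lower genes, where this held for 33.0% and 33.7% of all genes. Among genes at a mean of 5 CPM or more, the 5 largest differences upward were Mmp9 with a log2 difference of 2.49, Timp4 with 2.45, Adamts9 with 2.36, Adamtsl2 with 2.29 and Adamts15 with 2.27. The 5 largest downward were Loxl4 with -3.66, Adamts1 with -3.14, Timp2 with -2.47, Mmp2 with -1.82 and Mmp11 with -1.60. All 5 lysyl oxidases were lower in Ago2-IP RNA, by log2 differences of -0.70 to -3.66. The cell type markers differed between the same libraries. Higher in Ago2-IP RNA were 18 of 19 tested cardiac genes, 10 of 10 endothelial, 8 of 8 leukocyte and 10 of 10 fibroblast genes. In these lists 0 genes were lower. Of 8 tested renin lineage and mural genes 6 were higher and 2 lower, and of 4 kidney tubule genes 0 and 3. The part of these markers in the differences given here was not tested. Timp2, at 1699.6 to 1857 CPM in polyA control, was at 252 to 275 CPM in Ago2-IP control, and Adamts1, at 797 to 1076 CPM, was at 49.9 to 118 CPM. These CPM were scaled within each kind of RNA and the log2 differences over all 16 libraries, so they do not match exactly. The Ago2-IP libraries thus showed another order of family members, with Timp1 at 57.5% ± 1.83 (SD, n = 4) of the TIMP sum per kilobase and Mmp15 at 36.2% ± 1.91 of the MMP sum, ahead of Mmp2 at 27.4% ± 1.60. Scaling by library size alone moved the median difference of all genes from -0.03 to -0.35 and the higher share of all calls from 50.3% to 37.9%, and 16 of the genes studied here were then higher and 18 lower. With miR-106b 14 genes were higher and 19 lower in Ago2-IP RNA (46.4% of all genes in either direction). Without polyA miR-106b replicate 1, 9 were higher and 15 lower, and the share of all genes in that fit is not given here.

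**Figure D5:**
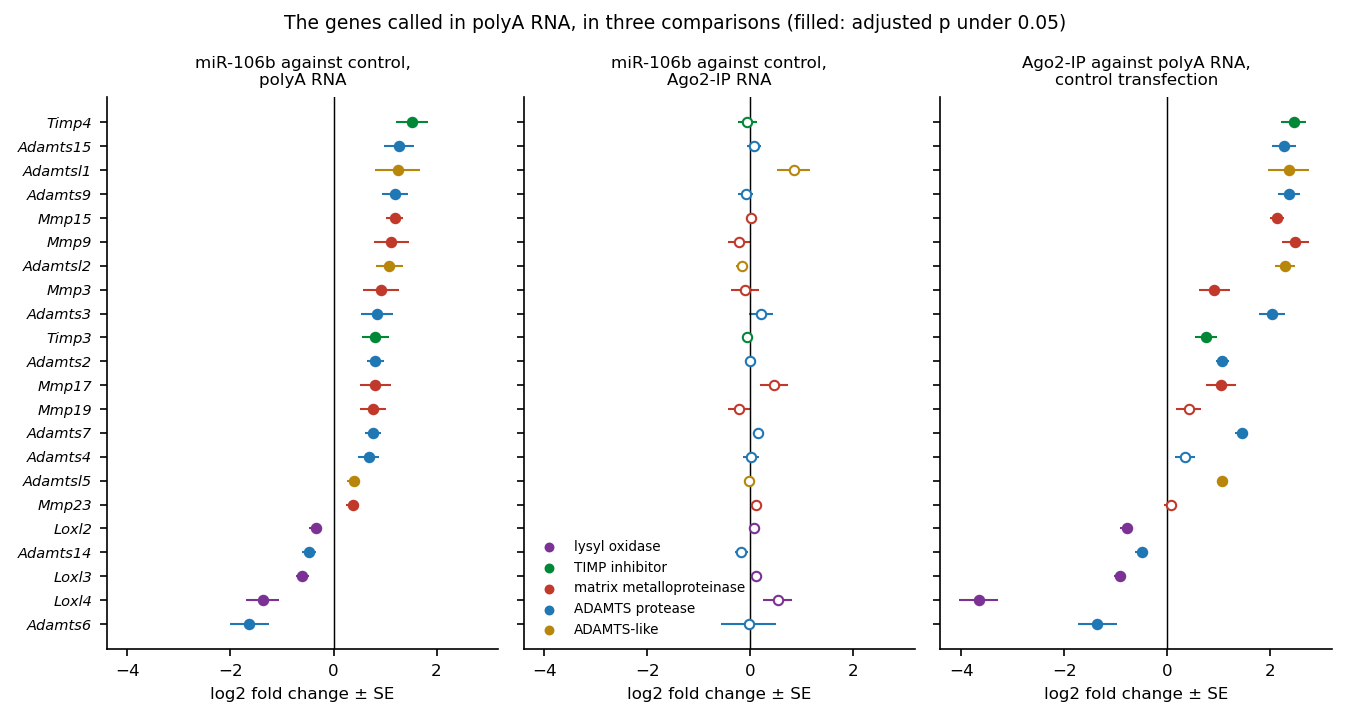
Log2 fold change with bars of 1 SE (x axis) of the 22 genes called in polyA RNA, in the comparisons of transfection in polyA RNA (4 against 4 libraries), of transfection in Ago2-IP RNA (4 against 4) and of Ago2-IP with polyA RNA in control cells, filled where the adjusted p was under 0.05 and coloured by family. No point is filled for Ago2-IP RNA, and Timp4 (1.52) and Adamts6 (-1.64) are the ends of the polyA panel. The panels share the polyA control libraries or the Ago2-IP control libraries.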

How the data were processed

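RNA of JG cells was measured in 16 libraries, 4 per transfection and kind of RNA. Per the methods of the study, the authors removed ribosomal RNA reads, aligned single-end reads to the GRCm38 transcriptome with TopHat2 (the submitters' processing notes name version 2.0.10) and counted them on genes with HTSeq. The deposited values are raw counts per gene, with no normalization, from libraries that do not mark strand. Here genes were kept that had 1 CPM or more in 3 or 4 libraries of 1 or more groups (14897 of 46078), libraries were scaled by TMM and groups compared with the quasi-likelihood F test of edgeR 4.0.16 in R 4.3.3 (two-sided, robust dispersion, prior count 0.125, Benjamini-Hochberg over all genes tested, threshold 0.05). Transfections were compared within each kind of RNA, and the ratio and the kinds of RNA over 16 libraries. SE is the log2 fold change over the square root of F. Exon lengths and 3′UTRs came from GENCODE M21, in which 45229 table identifiers and all 55 genes were found. Gene coordinates are those of the count table, with 1 added to its starts. Named genes were 12 chosen by role (Mmp2, Mmp14, Timp1 to Timp4, Lox, Loxl1 to Loxl4 and Adamts1), per comparison the called genes with a mean of 5 CPM or more (up to 10 per direction, or 5 between kinds of RNA), and the 5 highest per kilobase. Other genes called, and those of the related lists, were named after their values were seen. Members and lists were chosen with earlier results of these data known. Alternatives were DESeq2 1.42.0 (size factors and Wald test), library size scaling, other filters, a replicate block, a likelihood ratio test, all 16 libraries in 1 fit, TMM within each kind of RNA and leaving out each library, and counts by family and list without polyA miR-106b replicate 1 were added after the data were seen. Simulated counts were used to check the tests, which recovered fewer of the changed genes for the ratio than for the other comparisons. A result on 1 gene of a related list is not reported here.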

Additional observations from a re-analysis of the deposited data

Results flagged for a closer look

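Within groups of 4 libraries, 9 of 132 groups over 33 genes had 1 library far from the other 3 by Dixon's criterion, where chance gives about 1 in 20. In polyA miR-106b, replicate 1 was at 747 CPM for Mmp14, at 92.3 CPM for Loxl3 and at 86.9 CPM for Adamts10, against 347 to 399.7, 65.3 to 69.8 and 109 to 113 CPM. In polyA control, replicate 4 was at 798 CPM for Lox, at 33.6 CPM for Adamts4 and at 6.65 CPM for Mmp3, against 642 to 665, 21.1 to 22.0 and 3.95 to 4.20 CPM. In Ago2-IP miR-106b, replicate 2 was at 107 CPM for Timp1, replicate 3 at 3.23 CPM for Adamts6 and replicate 4 at 18.7 CPM for Adamts4. The far values of Lox with miR-106b, at 2674 and 1192 CPM in replicates 1 and 4, did not meet the criterion because both are high.

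For 17 genes the change with miR-106b differed between the kinds of RNA by the interaction term of edgeR's test. The same test called 27.3% of all 14897 tested genes, 7.61% with a higher and 19.7% with a lower ratio. The log2 change of the Ago2:polyA ratio was 1.86 for Mmp16, 1.76 for Loxl4 and 0.57 for Loxl3. It was -1.72 for Timp4, -1.48 for Mmp9, -1.44 for Adamts9, -1.39 for Adamtsl2, -1.34 for Adamts15, -1.33 for Mmp15, -1.17 for Mmp3, -1.14 for Mmp19, -1.01 for Timp3, -0.97 for Adamts2, -0.82 for Adamts4, -0.77 for Adamts7, -0.56 for Adamtsl5 and -0.42 for Adamts10. The marker sums of cardiac muscle, endothelium, leukocytes, fibroblasts and renin lineage and mural cells rose in polyA RNA and not in Ago2-IP RNA. That of kidney tubule did not rise in polyA RNA. Their part in these changes was not tested.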

How the results depend on the processing

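Of the values of single genes under the alternatives, 1365 of 1511 kept their direction and side of the threshold, 108 lost the call, 7 gained one and 31 changed sign, 0 of them for a called gene. The replicate numbers did not pair the libraries, with correlations of deviations from -0.42 to 0.26. In 5 of 24 comparisons between groups a library was closest to the one with its own number. A replicate block gave 14 higher and 4 lower in polyA RNA and 3 higher and 13 lower ratios. Under the likelihood ratio test 8 genes were lower in polyA RNA. Over all genes in polyA RNA, the main fit called 6034 in either direction, the likelihood ratio test 7329 and the replicate block 5511. With at least 10 counts in every library 1 gene had a higher ratio, where only 33 of the genes were tested. With 7mer-A1 matches 7 genes held a site. With 1 library left out, polyA RNA gave 11 to 18 higher and 3 to 11 lower, the ratio 1 to 5 higher and 11 to 14 lower, and Ago2-IP against polyA RNA with miR-106b, an alternative set added after the data were seen, 9 to 14 higher. Over all genes these fits called 4126 to 6704 in either direction in polyA RNA, and such totals are not given here for the other comparisons. The largest main values that turned sign were those of Mmp2, a polyA change of 0.36 and a ratio change of -0.47. The polyA change of Loxl1 was -0.00568 by library size, -0.0463 with the block and -0.0896 by the likelihood ratio test, where that of Mmp2 was -0.13, and with 16 libraries in 1 fit those of Mmp14, Adamts1 and Mmp11 were 0.0461, 0.0738 and 0.00289. The ratio change of Mmp14 was 0.0881 by library size, 0.0626 without a filter, 0.0628 with TMM within each kind and 0.17 by the likelihood ratio test, where that of Mmp2 was 0.0363. With 1 library left out, polyA changes ranged from -0.52 to 0.14 for Adamts1, -0.15 to 0.17 for Loxl1, -0.34 to 0.0613 for Mmp11, -0.32 to 0.0386 for Mmp14 and -0.22 to 0.58 for Mmp2, and ratio changes from -0.18 to 0.65 for Adamts1, -0.33 to 0.0439 for Loxl1, -0.18 to 0.24 for Mmp14 and -0.66 to 0.19 for Mmp2. The causes were not tested. At levels of a few CPM, as for Mmp16 or Adamts6 in Ago2-IP RNA, depth limits what could be detected.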
